A study of Mus musculus with 4 samples.

Results

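Mouse chromosome 6 carried 6046 of the 72425 open chromatin regions found by ATAC-seq in B16-F10, a melanoma line of the mouse, over 4 libraries. ATAC-seq cuts accessible DNA with the Tn5 transposase, so that reads pile up where the DNA is not wrapped in nucleosomes. The regions were formed by merging the calls of the 4 deposited peak lists wherever they overlapped by at least 1 bp, and every merged region on chromosome 6 was taken. The libraries are 2 of cells in which Ssbp4 had been knocked out by electroporation of Cas9 with several guides, and 2 of wild-type cells. The protocol names a control guide against an intergenic site on chromosome 2, without saying which libraries received it. No selection of clones is described, and the labels do not say that replicates came from separate cultures, so the spread between them may be technical. Positions are on the GRCm39 build.

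SSBP4 belongs to a family of proteins that bind single-stranded DNA and stabilise complexes of the cofactor LDB1 with LIM-domain transcription factors. Chromosome 6 is acrocentric, as mouse autosomes are, and RefSeq (GRCm38.p6) lists on it several genes that matter in melanoma: Mitf, the master transcription factor of melanocytes, its relative Tfec, the kinase Braf and the receptor Met. It also carries the Hoxa cluster of homeobox genes that pattern the body axis, Ezh2 of the Polycomb repressive complex, the cell cycle regulators Ccnd2 and Cdkn1b, the phospholipid enzyme Lpcat3, and the lymphocyte genes Cd4, Lag3 and Klrd1. Because that gene table is of another build than the peak lists, no region was assigned to a gene, and the identity of the cells and the knockout label were not checked from the lists.

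The lists held 50207 and 57850 calls in knockout replicates 1 and 2, against 59346 and 63199 in wild-type replicates 1 and 2. The genome-wide background was taken as the lowest background pileup recovered from the calls of a library. It was 17.2 and 17.4 in the 2 knockout libraries and 14.7 and 15.1 in the wild-type libraries. It was not measured on closed DNA. Total reads per library were not used here. A bulk library cannot tell a region that is open in fewer cells from one that is less open in every cell. The chromosome was chosen by its high count of regions called in both knockout libraries and in neither wild-type library, with earlier results of these libraries in view. Counts of gained, lost and genotype-only calls are therefore a description, without a test, and the values per library that follow come from the same contrast and are no independent evidence.

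The regions of chromosome 6 reached up to 149 Mb and covered 5.78 Mb, or 3.94% of the span from the first to the last. They were between 307 and 4969 bp wide, with a median of 864 bp, below the median of each of the other 18 autosomes, whose values were 865 to 951 bp. The gap with the nearest other autosome, chromosome 1, was 1 bp. Regions of 2000 bp or more numbered 206, or 3.41% of the regions of chromosome 6 against 4.37% on the other autosomes. The regions called in all 4 libraries had a median of 1172 bp on chromosome 6 and 1179 bp on the other autosomes. Regions of chromosome 6 called in a single library were narrower, with a median of 493 bp for knockout libraries and 392 bp for wild-type libraries. Merging by overlap left 15 pairs of neighbours less than 100 bp apart as separate regions.

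Chromosome 6 held more union regions than any other autosome, 6046 against 1757 on chromosome 18 and 5731 on chromosome 2, the lowest and the highest of the others. By number of regions called in all 4 libraries it ranked 3rd, after chromosomes 2 (3629) and 11 (3553). Counted per megabase up to the last region, the density of its union regions was 40.4. This was second to chromosome 11 with 46.4 and above the median of 28.1 over the other autosomes. Of its regions, 3204 (53.0%) were called in all 4 libraries, the lowest share of the 19 autosomes, where the others had 56.6% to 64.5%. Chromosome 11, the nearest in density, had 62.9%, and chromosome 15, the next at 35.8 regions per megabase, had 59.1%.

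Regions called only in knockout cells were more frequent on chromosome 6 than on the other autosomes. On chromosome 6, 1217 regions (20.1%) had a call in 1 or both knockout libraries and in neither wild-type library, against 7.77% on the other autosomes and 8.82% of all autosomal regions. The other 18 autosomes had between 3.58% and 12.9%. The reverse pattern, calls in wild-type libraries alone, held for 728 regions of chromosome 6 (12.0%), against 17.1% on the other autosomes and 16.6% of all autosomal regions, and here chromosome 6 was the lowest of the 19. Without knockout replicate 2 the knockout-only share of chromosome 6 was 9.76%, against 3.65% elsewhere, and chromosome 6 still ranked first. With calls of −log10 q of at least 5 the share was 8.71%, against 4.22% elsewhere. With lists of equal length it was 23.3%, against 12.8% elsewhere.

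**Figure D1:**
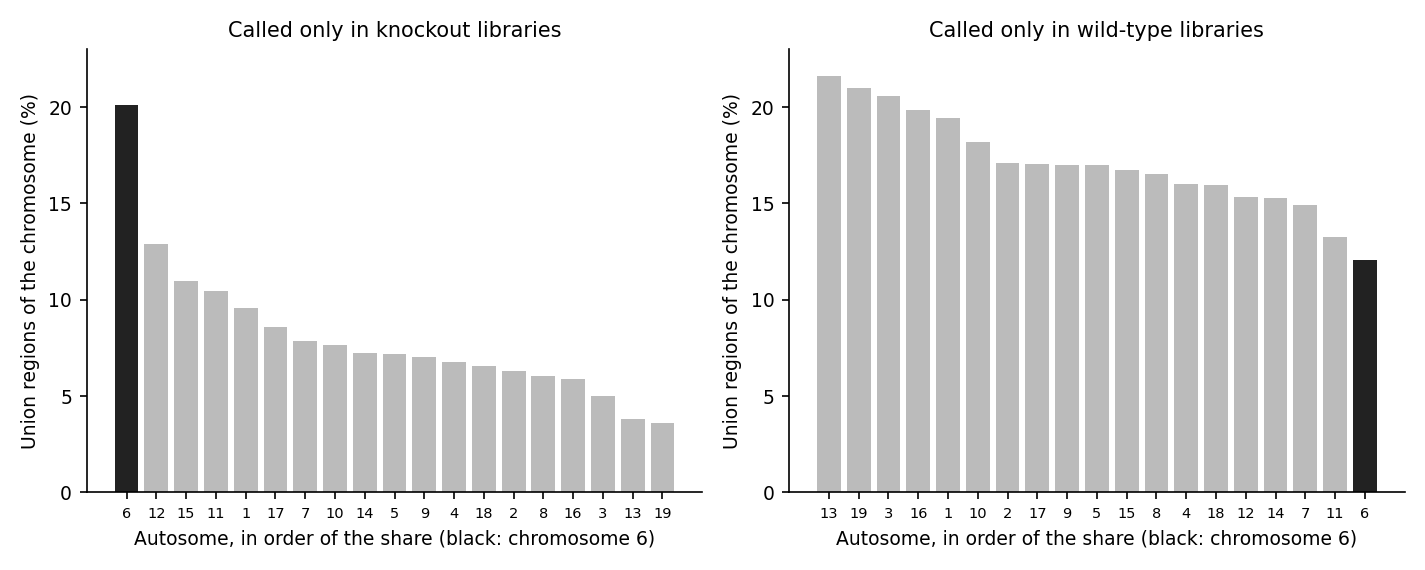
Share of each autosome's union regions that were called only in knockout libraries (left) and only in wild-type libraries (right), in percent, with the autosomes in order of that share and chromosome 6 in black. Chromosome 6 stands at 20.1% on the left, against at most 12.9% elsewhere, and at 12.0% on the right, the lowest of the 19.

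Most of these calls were private to a single library. Knockout replicate 2 alone held 698 of the regions of chromosome 6 (11.5%, against 4.32% on the other autosomes), and knockout replicate 1 alone held 323 (5.34%, against 2.09%). Wild-type replicate 1 alone held 168 (2.78%, against 2.97%) and wild-type replicate 2 alone held 302 (5.00%, against 6.78%). Both knockout libraries thus had a surplus of private calls on chromosome 6 relative to the other autosomes, and neither wild-type library did.

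Regions gained in knockout cells, called in both of its libraries and in neither wild-type library, numbered 196 on chromosome 6, or 3.24% of its regions. The same rule held for 1.53% of all autosomal regions and 1.37% of those outside chromosome 6. Regions lost in knockout cells numbered 258, or 4.27%, against 7.05% of all autosomal regions and 7.31% of those outside chromosome 6. These 2 counts lie in the contrast by which the chromosome was chosen. Leaving out a library loosens the definition: the gained regions then numbered 904 without knockout replicate 1, 523 without knockout replicate 2 and 298 without wild-type replicate 2, and the lost regions 616 without knockout replicate 2, 564 without wild-type replicate 1 and 428 without wild-type replicate 2. With calls of −log10 q of at least 5 there were 69 gained regions (1.41%, against 0.81% elsewhere). Lists of equal length gave 225 gained regions (4.69%, against 3.38%) and 151 lost regions (3.15%, against 4.72%). In each of those settings the gained share was higher, and the lost share lower, on chromosome 6 than on the other autosomes.

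Gained regions were weak on chromosome 6 as elsewhere. Each of the 196 lay below the 50th percentile of both knockout lists when calls were ordered by p-value, and the highest-ranked, by the lower of its 2 percentiles, stood at the 30.4th. On the other autosomes 886 of 892 gained regions (99.3%) lay below the 50th percentile of both lists. Their median fold enrichment at the summit, as deposited by the authors, was 2.17 and 2.23 in knockout replicates 1 and 2, against 2.28 and 2.38 for gained regions of the other autosomes. Median summit heights were 41 and 43 reads on chromosome 6, against a genome-wide background of 17.2 and 17.4. They were wider than the lost regions of the chromosome, with a median of 805 bp against 565 bp, as on the other autosomes, where the medians were 740.5 and 543 bp.

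The highest-ranked gained region, chr6:52415274-52415805, had folds of 3.43 and 3.78 in knockout replicates 1 and 2 and no call in the wild-type lists. The region chr6:137639934-137640559 had folds of 3.69 and 3.52, and chr6:56043336-56044056 had folds of 2.70 and 2.96. The next were chr6:66631762-66632894, with folds of 3.03 and 3.04, and chr6:52553879-52554706, with folds of 2.97 and 3.09. The first and the last of these 5 lie in the same 10-Mb segment, as does chr6:56043336-56044056. The region near 66.6 Mb was isolated, with 118806 bp to the nearest other region, whereas the first 3 had a neighbour within 3853 bp.

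The lost regions included stronger calls. Of 258, 234 (90.7%) lay below the 50th percentile of both wild-type lists, and the highest, by the lower of its 2 percentiles, stood at the 66.8th. On the other autosomes the share was 92.5% (4403 of 4759) and the highest stood at the 83.2nd percentile. The highest on chromosome 6, chr6:45250333-45250804, had folds of 11.6 and 13.6 in wild-type replicates 1 and 2, from summits of 181 and 218 reads, and no call in either knockout list. The region chr6:6156182-6156657 had folds of only 3.95 and 4.16 from summits of 389 and 454 reads, over local backgrounds of 97.7 and 108 reads. The regions chr6:103373962-103374986 (summits of 167 and 174 reads) and chr6:20290402-20290967 (153 and 209 reads) were 43572 and 170089 bp from the nearest other region. The last, chr6:121111691-121112139, had folds of 4.58 and 4.60. The isolated 3 of these regions stood on the genome-wide background in both wild-type libraries.

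The number of calls on chromosome 6 overlapped between genotypes, while its share of each list did not. Knockout replicates 1 and 2 had 4077 and 4931 calls there, against 4292 and 4526 in wild-type replicates 1 and 2. As a share of the autosomal calls of each library this was 8.27% (95% Wilson interval 8.03 to 8.51) and 8.67% (8.44 to 8.91) in the 2 knockout libraries, and 7.36% (7.15 to 7.58) and 7.29% (7.09 to 7.50) in the wild-type libraries. These intervals cover counting error only. The shares averaged 8.47% ± 0.287 in knockout libraries and 7.33% ± 0.0516 in wild-type libraries (SD, n = 2 each), a difference of 1.14 percentage points. The groups did not overlap. With calls of −log10 q of at least 5 the difference was 0.482 points. The exact permutation test over the 4 libraries, two-sided, gave p = 0.333, the smallest that 2 libraries against 2 allow, so this design cannot reach 0.05. Chromosome 6 was the autosome with the largest such difference, the others lying between −0.334 points (chromosome 3) and 0.389 points (chromosome 11). The gained regions by which the chromosome was chosen enter the knockout shares, so neither this rank nor the separation is independent of the choice.

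The surplus was largest among weak calls. When the autosomal calls of each library were ordered by p-value and divided into 4 equal parts, chromosome 6 held 12.0% and 13.3% of the weakest 25% in knockout replicates 1 and 2, against 8.60% and 8.15% in wild-type replicates 1 and 2. In the next 25% it held 7.77% and 8.13% in knockout cells, against 7.55% and 7.74% in wild type. In the strongest 25% it held 6.55% and 6.70% in knockout cells, against 6.68% and 6.62% in wild type, so there the genotypes overlapped. In the strongest 10% it held 7.81% and 7.53% in knockout cells, against 7.48% and 7.23% in wild type, without overlap. In every library the share was higher among the weakest 25% than among the strongest 25%.

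**Figure D2:**
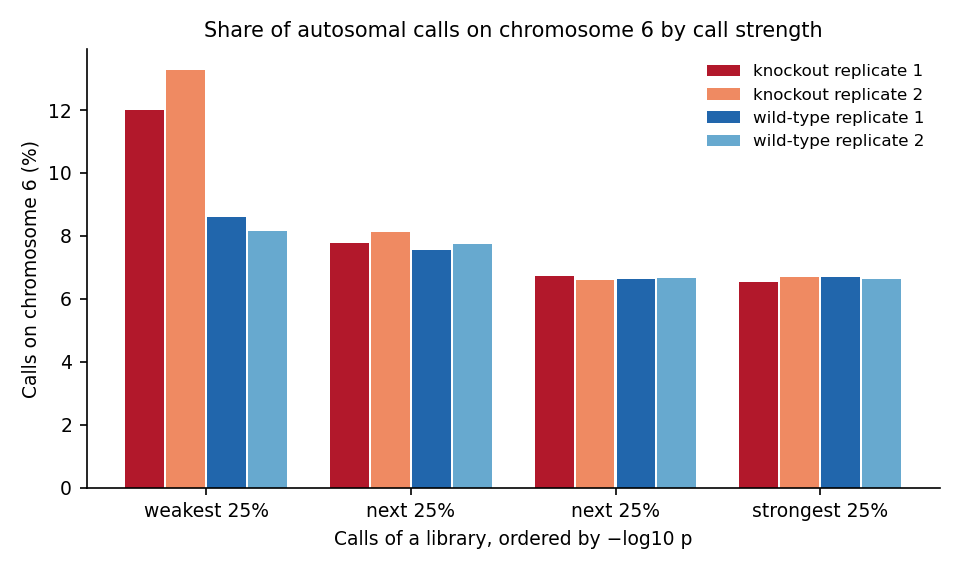
Percent of a library's autosomal calls that lie on chromosome 6, for 4 equal parts of the list ordered by −log10 p, with 1 bar per library. The knockout libraries stand at 12.0% and 13.3% in the weakest part, above the wild-type libraries at 8.60% and 8.15%, and all libraries lie between 6.55% and 6.70% in the strongest part.

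Regions were distributed unevenly along the chromosome. Divided into 15 segments of 10 Mb from its start, chromosome 6 had 78 regions in the sparsest segment, 60 to 70 Mb, and 814 in the fullest, 80 to 90 Mb. Of its 150 windows of 1 Mb, 13 (8.67%) held 100 regions or more, against 2.29% of the windows of the other autosomes, and 8 (5.33%) held 0, against 5.26%. The windows with 100 or more regions contained 24.1% of all regions of the chromosome, against 9.32% elsewhere. Concentration into a few windows was nevertheless not higher, as the fullest 10% of windows held 27.4% of the regions of chromosome 6 and 31.9% of those of the other autosomes.

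The fullest window, 91 to 92 Mb, held 131 regions, followed by 72 to 73 Mb with 124 and 88 to 89 Mb with 123. They differed in make-up: in the first, 63 regions (48.1%) were called in all 4 libraries and 25 in knockout cells alone, while in the second 81 (65.3%) were called in all 4 and 10 in knockout cells alone. At 88 to 89 Mb, 73 were called in all 4 and 18 in knockout cells alone. The first 2 held 0 gained regions and the window at 88 to 89 Mb held 1. At the other extreme, the longest stretch without a region ran for 2.06 Mb, from 68228838 to 70291632, and the next for 1.90 Mb, from 73864486 to 75761511.

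The excess of knockout calls relative to the other autosomes extended over the whole length of the chromosome. In every one of the 15 segments the ratio of knockout to wild-type calls lay above 0.871, the ratio over all other autosomes, with a range of 0.926 (10 to 20 Mb) to 1.08 (0 to 10 Mb). In 13 of them it was above 0.933, the 90th percentile of the 234 segments of the other autosomes with at least 20 shared regions. The share of knockout-only regions was between 10.3% (60 to 70 Mb) and 24.0% and exceeded the 90th percentile of the other segments, 11.8%, in 14 of 15. All 15 segments also had a lost share below the median of the other segments, 7.39%, and a gained share above their median, 1.12%. Gained regions were most numerous in the segments at 80 to 90 Mb, with 29, and 30 to 40 Mb, with 28, and relative to the regions present they were most frequent at 130 to 140 Mb, at 5.17%, with 14 gained and 6 lost.

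**Figure D3:**
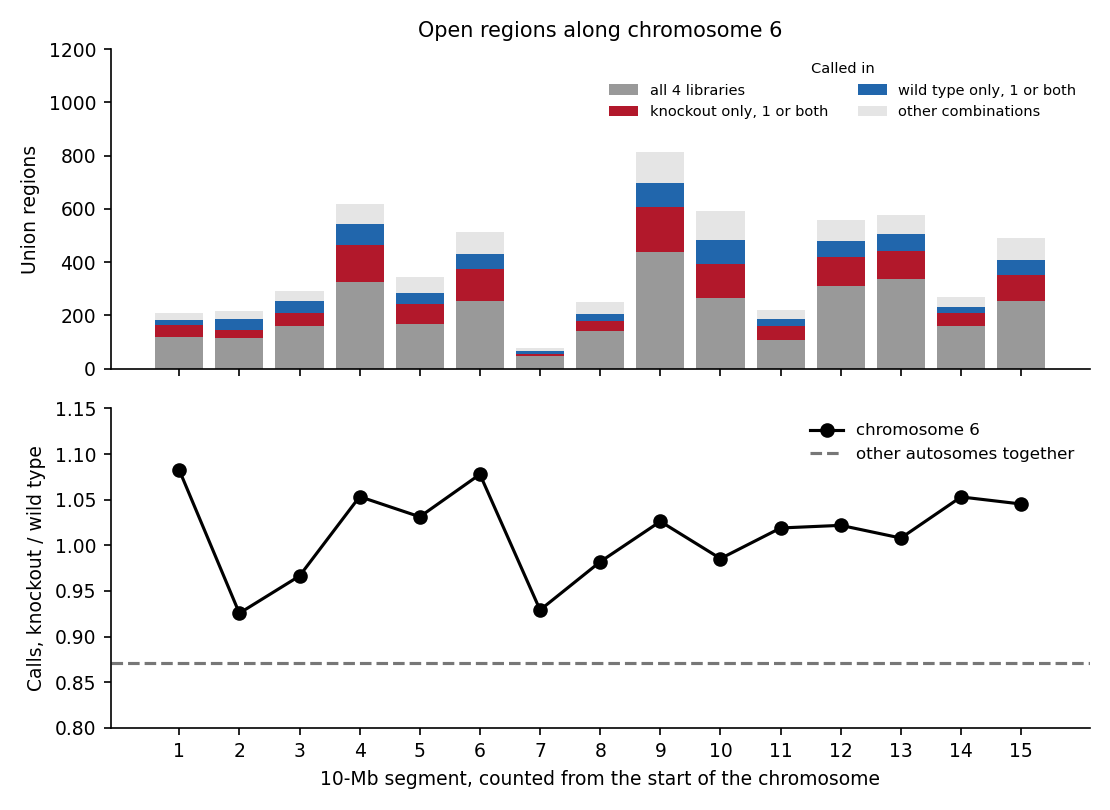
Top, number of union regions in each 10-Mb segment of chromosome 6 by the libraries that called them. Bottom, ratio of knockout to wild-type calls per segment (sum of 2 libraries each) with the value of the other autosomes, 0.871, as a dashed line and an axis that does not start at 0; all 15 segments lie above the line, the lowest at 0.926.

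The level against which calls are made was also described. The local background of a call, the higher of the genome-wide background and the level of the surroundings, was recovered from the deposited fold and p-value. On chromosome 6, 21.2% and 23.1% of the calls in knockout replicates 1 and 2 had a local background at the genome-wide level, against 29.1% and 31.7% in wild-type replicates 1 and 2. On the other autosomes the shares were 29.9% and 31.3% in knockout cells and 34.5% and 37.6% in wild type. Calls on chromosome 6 thus lay more often in raised surroundings in all 4 libraries. Only chromosome 11 had lower shares than chromosome 6 in both knockout libraries.

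For shared regions, those with a call in every library, the median of the log2 local background on chromosome 6 exceeded that of the other autosomes by 0.20 and 0.17 in knockout replicates 1 and 2, against 0.032 and 0.018 in wild-type replicates 1 and 2. The mean excess was 0.18 ± 0.023 in knockout cells and 0.025 ± 0.0097 in wild type (SD, n = 2 each). The difference of 0.16 was larger than the spread between replicates, with p = 0.333 in the exact permutation test, again the smallest possible. It was the largest of the 19 autosomes, the others lying between −0.20 on chromosome 19 and 0.098 on chromosome 14. Divided by the genome-wide level, the medians of chromosome 6 itself overlapped between genotypes. They were 1.714 and 1.769 in knockout cells, against 1.766 and 1.797 in wild type. The medians over the other autosomes were lower in knockout cells, at 1.46 and 1.55, against 1.70 and 1.74 in wild type. The genome-wide level sets a lower limit to these backgrounds. With the shared regions above that limit in all 4 libraries the difference was 0.19.

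The window from which the surroundings are read includes nearby open regions, so isolated regions were set apart. Chromosome 6 had 526 shared regions that were narrower than 1500 bp and more than 10 kb from any other region. Their median local background was 1.08 and 1.11 times the genome-wide level in knockout replicates 1 and 2, against 1.05 and 1.05 times in wild-type replicates 1 and 2. In the knockout, chromosome 6 was below 2 of the other autosomes in both libraries, and the median of the others was 1 in both. In wild type it ranked 12th in both libraries, below the median of the others, 1.06 and 1.07. The part of the local background in the surplus of weak calls was not tested.

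Summit heights of shared regions were lower on chromosome 6 than on the other autosomes in every library, as medians over all their regions. The median height was 133 and 164 reads in knockout replicates 1 and 2 and 181 and 207 reads in wild-type replicates 1 and 2, against 139 and 173 reads in knockout cells and 199 and 232 reads in wild type on the other autosomes. In log2 units chromosome 6 stood at −0.064 and −0.077 in knockout cells and −0.14 and −0.16 in wild type, relative to the regions of the other autosomes. The deficit was thus smaller in both knockout libraries, by 0.080 on average (exact permutation p = 0.333, the smallest possible). Chromosomes 14 and 18 had larger differences of the same sign, up to 0.15.

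The fold, which divides summit height by local background, was the lowest of the 19 autosomes on chromosome 6 in all 4 libraries. Its median over shared regions was 4.35 and 5.08 in knockout replicates 1 and 2 and 6.50 and 7.21 in wild-type replicates 1 and 2. The next lowest, chromosome 15, had 4.60 and 5.35 in knockout cells and 6.69 and 7.38 in wild type. On the log2 scale the distance of chromosome 6 from the other autosomes was −0.25 and −0.25 in knockout cells and −0.20 and −0.21 in wild type. The difference of −0.044 between genotypes exceeded the spread between replicates (exact permutation p = 0.333, the smallest possible). It was −0.13 over the regions above the genome-wide background, and chromosome 1 had a lower value still, −0.046, over all shared regions.

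**Figure D4:**
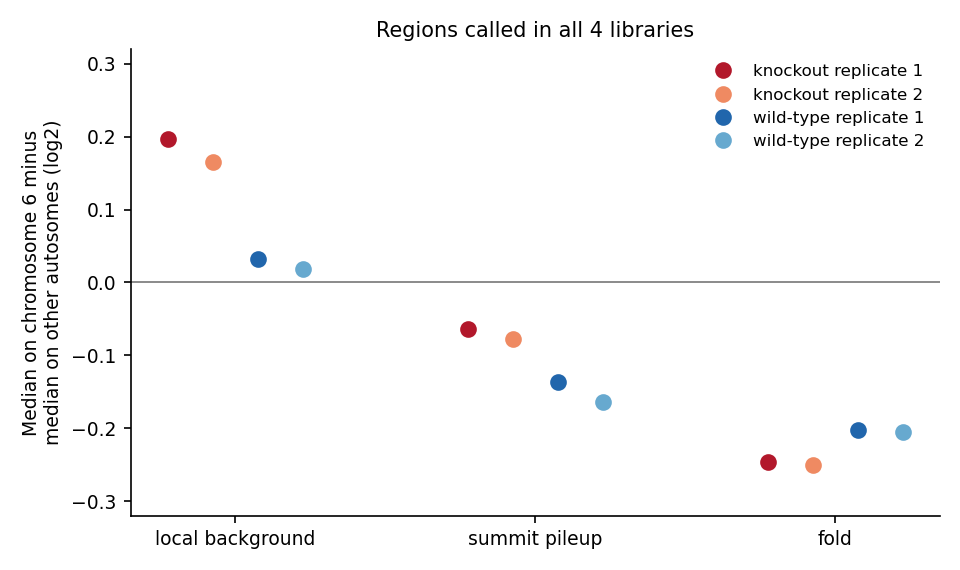
Median log2 value of the shared regions of chromosome 6 minus that of the other autosomes, for local background, summit pileup and fold, with 1 point per library. The local background stands at 0.20 and 0.17 in knockout libraries and at 0.032 and 0.018 in wild-type libraries, and the fold lies below 0 in all 4.

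Relative to the other autosomes, the summits of shared regions were more often higher in knockout cells on chromosome 6. After each library was scaled by the median of ratios over the other autosomes, 1402 of 3204 shared regions of chromosome 6 (43.8%) were higher in both knockout libraries than in both wild-type libraries, and 743 (23.2%) were lower. Over all shared autosomal regions the shares were 31.7% higher and 30.1% lower. Scaling by the library medians of the other autosomes gave 1851 higher (57.8%) and 538 lower (16.8%) on chromosome 6, with 46.3% and 21.2% over all shared autosomal regions. The higher share on chromosome 6 relative to all autosomes thus held under both scalings. It was not particular to chromosome 6. With the median of ratios, 49.7% were higher and 18.4% lower on chromosome 14 (median log2 difference 0.13). On chromosome 18 the shares were 43.3% and 22.2% (0.094). The median log2 difference on chromosome 6 was 0.092 with the median of ratios, against 0.015 over all shared autosomal regions, and 0.18 with the library medians, against 0.11.

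This held at each height. Among the lowest 25% of shared regions by mean summit height, the median log2 difference was 0.26 on chromosome 6 and 0.16 on the other autosomes, and 57.4% and 46.1% of the regions were higher in knockout cells. Among the highest 25% the medians were 0.041 and −0.0022, with 40.0% and 27.9% higher. Chromosome 6 also had more low regions, with 28.5% of its shared regions in the lowest part against 24.7% on the other autosomes.

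Along the chromosome, 14 of 15 segments had a positive median log2 difference in summit height, between 0.057 and 0.13, and 10 lay above the 90th percentile of the other segments, 0.076. The exception was the segment at 10 to 20 Mb, with −0.073 over 116 shared regions, of which 34 were higher and 47 lower in knockout cells. This segment also had the lowest ratio of knockout to wild-type calls and, with 15 of 216 regions, the highest share of lost regions, 6.94%. Local background relative to the genome-wide level was there 1.19 and 1.26 in knockout replicates 1 and 2, against 1.45 and 1.47 in wild-type replicates 1 and 2. This direction was not particular to the segment. Medians over the segments of the other autosomes were 1.36 and 1.41 in knockout cells, against 1.56 and 1.59 in wild type. At the other end of the range, the segment at 110 to 120 Mb had the largest median difference, 0.13, with 149 regions higher and 56 lower.

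The segments followed a common profile in all libraries. Local background was highest at 110 to 120 Mb, at 2.10 and 2.32 times the genome-wide level in knockout replicates 1 and 2 and 2.34 and 2.41 times in wild-type replicates 1 and 2. It was low at 60 to 70 Mb, at 1.09 and 1.08 times in knockout cells and 1.27 and 1.20 times in wild type. Fold was highest at 60 to 70 Mb, with 5.54 and 6.56 in knockout cells and 8.37 and 9.32 in wild type. At 110 to 120 Mb it was 3.69 and 4.47 in knockout cells and 5.63 and 6.36 in wild type. Fold did not mirror background in every segment: at 70 to 80 Mb, background was 2.02 and 2.12 times the genome-wide level in knockout cells and 2.13 and 2.12 times in wild type, and fold was 5.23 and 6.33 in knockout cells and 7.93 and 8.65 in wild type, among the higher values. In each segment both knockout libraries had lower folds than both wild-type libraries. The same held off chromosome 6: over shared regions of the other autosomes the medians were 5.16 and 6.05 in knockout cells and 7.47 and 8.31 in wild type.

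**Figure D5:**
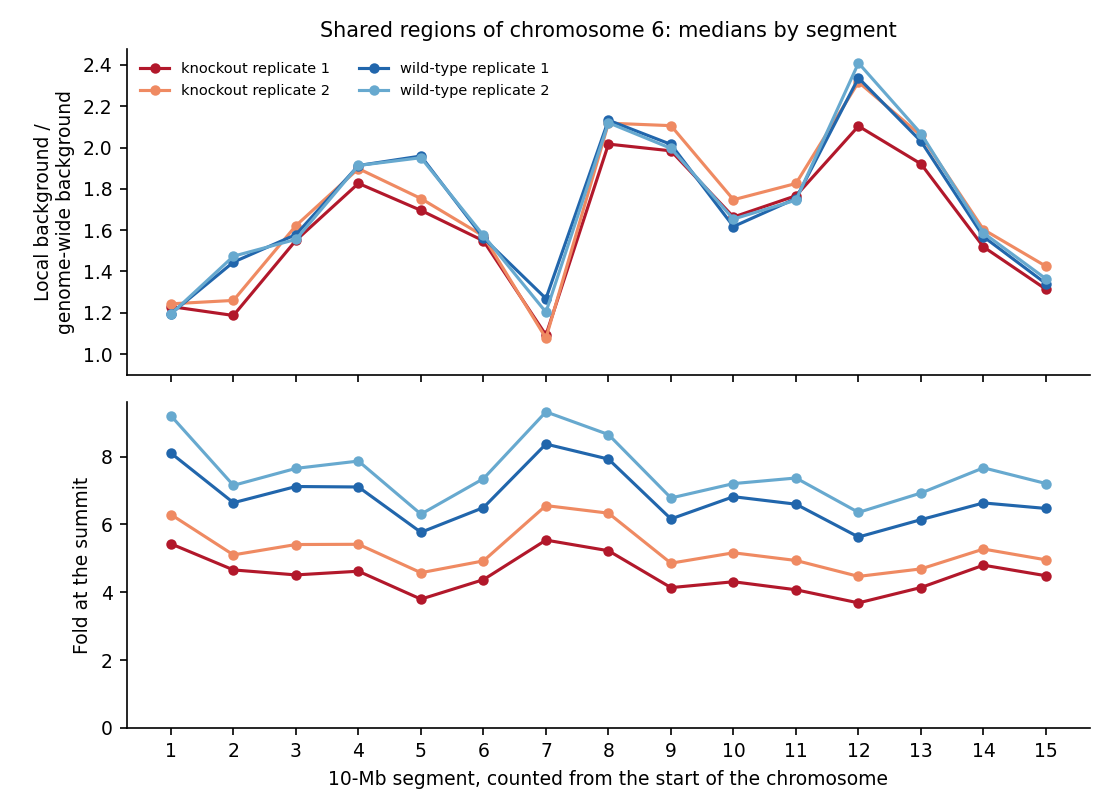
Medians over the shared regions of each 10-Mb segment of chromosome 6, with 1 line per library: local background divided by the genome-wide background (top, axis from 0.9) and fold at the summit (bottom). Background peaks at the twelfth segment, 110 to 120 Mb, at 2.10 to 2.41, and fold is highest at the seventh, 60 to 70 Mb. The knockout lines lie below the wild-type lines in every segment of the lower plot, and median folds of the other autosomes differ in the same direction.

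Single shared regions departed from this general shift in both directions, with log2 changes of scaled summit height between −1.62 and 1.46 among the 3083 regions with a mean of at least 50 reads. The values given are reads at the summit before scaling. The largest rise was at chr6:41856316-41858043, with 70 and 77 reads in knockout replicates 1 and 2, against 37 and 37 in wild-type replicates 1 and 2. The region chr6:90565129-90566176 had 64 and 72 reads in knockout cells, against 33 and 37 in wild type (log2 change 1.43). The regions chr6:147451396-147456364 (log2 change 1.39), chr6:95659393-95660264 (1.36) and chr6:146742670-146744536 (1.33) followed. All 5 were low summits, below the 50th percentile of every list, and chr6:147451396-147456364 was also the widest region of the chromosome at 4969 bp.

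The largest falls were of taller summits. The region chr6:113219772-113220480 had 95 and 112 reads in knockout replicates 1 and 2, against 430 and 451 reads in wild-type replicates 1 and 2, with folds of 2.44 and 2.66 against 8.90 and 8.70 (log2 change −1.62). The region chr6:48676169-48677585 had 117 and 123 reads in knockout cells, against 388 and 433 in wild type (−1.30). The region chr6:33988266-33989232 had 69 and 91 reads in knockout cells, against 234 and 294 in wild type (−1.26). In these 3 regions both wild-type replicates stood far above both knockout replicates in unscaled reads. The rises and falls named here were picked for no overlap of genotypes after scaling, so the separation is part of the choice.

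The other 2 falls had a wider spread in wild type. The region chr6:39094345-39095638 had 96 and 164 reads in knockout cells and 195 and 647 reads in wild type, and after scaling knockout replicate 2 and wild-type replicate 1 were nearly equal, at 0.95 and 0.98 times their library's median. The region chr6:108804887-108806504 was among the strongest of the wild-type lists, with 718 and 826 reads in knockout cells, against 1887 and 2873 in wild type (log2 change −1.14). It lay at the 87.2nd and 88.0th percentile of the knockout lists and at the 98.0th and 99.3rd of the wild-type lists.

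The 5 strongest regions were picked for a high percentile in every list, so their ranks are a description. The region chr6:124805299-124807399 stood at the 99.99th percentile of all 4 lists, with 6020 and 6487 reads in knockout replicates 1 and 2 and 6685 and 6984 reads in wild-type replicates 1 and 2. After scaling the order was the other way, at 43.3 and 37.5 times the library median in knockout cells and 33.6 and 30.1 times in wild-type cells. The regions chr6:85427847-85429639, chr6:71807797-71808941, chr6:88818525-88819906 and chr6:113303243-113304565 followed, all at or above the 99.9th percentile of every list. The log2 changes of scaled summit height of these 5 lay between 0.23 and 0.34. With that scaling by library medians, the median change was 0.18 over the shared regions of chromosome 6 and 0.11 over all shared autosomal regions. The largest folds among these 5 were those of chr6:71807797-71808941, with 14.3 and 15.2 in knockout cells and 16.2 and 17.1 in wild type.

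The widest regions differed in strength. Apart from chr6:147451396-147456364, the widest shared regions were chr6:84248550-84252454 (3905 bp), chr6:91660634-91664278 (3645 bp), chr6:54482749-54486360 (3612 bp) and chr6:30734936-30738439 (3504 bp). The region chr6:91660634-91664278, in the fullest window of the chromosome, reached 1136 and 1236 reads in knockout replicates 1 and 2 and 1428 and 1714 reads in wild-type replicates 1 and 2, and its genotypes overlapped after scaling. The region chr6:30734936-30738439 had 1134 and 1187 reads in knockout cells and 1269 and 1378 reads in wild type, at the 92.0th and 90.2nd percentile of the knockout lists and the 90.1st and 89.5th of the wild-type lists. The region chr6:84248550-84252454 had 155 and 203 reads in knockout cells and 173 and 207 reads in wild type, so its genotypes overlapped before scaling. After scaling it stood at 1.12 and 1.17 times the library median in knockout cells and at 0.87 and 0.89 times in wild-type cells.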

How the data were processed

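ATAC-seq libraries of 2 Ssbp4 knockout and 2 wild-type samples of B16-F10 cells were read as deposited narrowPeak lists, with 1 list per library and hence no pooling of replicates. Peaks were called with MACS2 on GRCm39, per the submitters' processing notes; for the aligner, the versions, the duplicate filter and the Tn5 shift, nothing is given in the sources used here. The authors deposited for each call a fold enrichment (a ratio within its own library), a −log10 p-value, a −log10 q-value and a display score, which was not used. The deposited positions and summit offsets were converted to 1-based coordinates. These values belong to the peak and move with depth, and every list reached down to a q of about 0.05.

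Calls of chromosomes 1 to 19, X and Y were merged at 1 bp of overlap, and comparisons used the autosomes. Where a library had several calls in a region, that of highest −log10 p was taken. Summit pileup and local background were solved from fold, (pileup + 1) / (background + 1), and p-value, the Poisson tail; the solution lay within 0.05 of a whole pileup for 99.998% of calls per library, and was tested on simulated data. A background within 0.1% of a library's lowest counted as genome-wide. Named regions were the 5 of highest rank by percentile among gained, lost and shared regions, the 5 widest shared, the 5 largest rises and falls without overlap of genotypes, and the 3 fullest windows. The chromosome, lists and rules were chosen with earlier results of these data known. Tests were exact permutations over the 4 libraries; alternatives are listed in the closing section. Python 3.11.15, numpy 2.4.6, pandas 2.3.3 and scipy 1.17.1 were used.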

Additional observations from a re-analysis of the deposited data

How the results depend on the processing

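No result reversed its direction in the 63 alternative values computed for 8 results, and 20 of them moved beyond the replicate spread or by over 1.5 times. Many of the values could not reverse. Counts and percents of regions have no sign to change, and a replicate block leaves a difference as it was. With calls of −log10 q of at least 5, chromosome 6 had 69 gained regions (1.41%, against 0.81% on the other autosomes), a share of calls 0.482 points higher in the knockout, and 8.71% knockout-only regions (4.22% on the other autosomes). With lists of equal length it had 151 lost regions (3.15%, against 4.72%) and a share 0.833 points higher. Restricting to backgrounds above the genome-wide level (chosen after seeing the data) gave a background difference of 0.19 and a fold difference of −0.13, and regions under 2000 bp gave −0.033 for fold. Leaving out each library gave 280 to 904 gained regions (4.75% to 15.7%, against 2.17% to 5.83% on the other autosomes) and 336 to 616 lost regions (5.83% to 11.5%, against 8.90% to 14.9%), 0.940 to 1.35 points for the share, 0.16 to 0.19 for background, 0.079 to 0.095 for pileup, −0.055 to −0.034 for fold and 9.76% to 26.0% knockout-only regions; all 15 segments stayed above the other autosomes. The causes were not tested. The libraries share only replicate numbers (correlation of same-numbered deviations 0.17 over 43298 regions); with a replicate block the differences were 1.14 points for the share, 0.16 for background, 0.080 for pileup and −0.044 for fold, with an exact sign-flip p of 0.5 each, the smallest possible. Among the weakest calls 1 list can miss what another holds, and the part of depth in this was not tested.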
